A study of Mus musculus with 52 samples.

Results

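Peaks at 4 genes that restrain the cell cycle and act as barriers to reprogramming, Cdkn2a, Cdkn2b, Cdkn1a and Trp53, were described from the deposited ChIP-seq lists of a mouse reprogramming study. The members were all peaks that overlapped by at least 1 bp a window of the mm9 genome build around Cdkn2a and Cdkn2b (chr4:88900000-88970000), around Cdkn1a (chr17:29205000-29250000) or around Trp53 (chr11:69380000-69415000). They numbered 348 of the 928298 peaks in 43 lists. The Cdkn2a and Cdkn2b window held 141 of them, the Cdkn1a window 131 and the Trp53 window 76.

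Cdkn2a makes 2 unrelated proteins from separate starts. p16Ink4a binds and inhibits the cyclin D kinases Cdk4 and Cdk6, and p19Arf inhibits Mdm2, the ligase that marks p53 for degradation. Cdkn2b encodes p15Ink4b, a second inhibitor of Cdk4 and Cdk6. Trp53 encodes the transcription factor p53, and Cdkn1a, which encodes the kinase inhibitor p21, is its best known target. Fibroblasts gain Ink4a and Arf expression with passage in culture, Polycomb complexes deposit H3K27me3 over the Ink4a-Arf locus in young cells, and loss of Ink4a-Arf, p53 or p21 raises the yield of induced pluripotent stem (iPS) cells.

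The cells were Mbd3+/+ or Mbd3flox/- mouse embryonic fibroblasts (MEF), the same fibroblasts 4 and 8 days after doxycycline (2 µg/ml), iPS cells of both genotypes, and Mbd3-/- embryonic stem (ES) cells. The fibroblasts carried doxycycline-inducible Oct4, Sox2, Klf4 and Myc transgenes. The Mbd3+/+ clone carried the GOF18 deltaPE-Oct4-GFP reporter, and the Mbd3flox/- and Mbd3-/- cells carried the complete GOF18 Oct4-GFP reporter, so reporter and genotype cannot be told apart. Fibroblasts were grown in serum medium, and the later stages in N2B27 with knockout serum replacement, 2 kinase inhibitors and LIF, so medium and stage cannot be told apart either. Mbd3 is a subunit of the NuRD chromatin remodelling and deacetylase complex, and Mi2B (Chd4) is its ATPase. Each list came from 1 library of 1 clone, with no replicate, so no difference below was tested against a spread between samples. Mbd3 was profiled in Mbd3+/+ cells only, as MEF, day 4 and iPS. No Mi2B list of MEF, Oct4 list of Mbd3+/+ day 8 or Oct4 or Mbd3 list of ES cells was analysed here, nor one of H3K27me3 in Mbd3flox/- day 8.

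The lists held 274 to 63888 peaks, and their depth is unknown. The H3K27me3 lists of day 4 and of Mbd3+/+ day 8 were short, with 567 to 939 peaks against 13100 to 36232 in MEF, iPS and ES cells. The Oct4 lists of MEF held 274 and 489 peaks, and that of Mbd3flox/- iPS 3331 against 11881 to 33755 in the others after doxycycline. The Mi2B list of Mbd3flox/- iPS held 3462 peaks against 13125 to 29546 in the other Mi2B lists. The Mbd3 lists held 1177, 1944 and 8657 peaks. A gene with no peak in one of these lists was only not detected there. Scores are the authors' own, ran from 50 upward and the value 3100, called the plateau below, occurred in 28 lists. In Mbd3flox/- MEF H3K4me3 as many as 7924 peaks were at or above it, and in many other lists only 1 to 3. A score is read only within its list, as the share of that list's peaks that scored as high or higher.

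The deposited lists name no genes. Starts were therefore matched to peaks by order alone, with the gene order of RefSeq in GRCm38.p6, and no coordinate of that build was used. H3K4me3, the mark of active and poised starts, was merged over its 9 lists into sites. In the chromosome 4 window 3 sites were held by every H3K4me3 list, and these were taken in order as Ink4a (chr4:88925376-88929285), Arf (chr4:88937704-88942846) and Cdkn2b (chr4:88951236-88957804). The chromosome 17 window had 2 such sites, the Cdkn1a site (chr17:29227231-29238399) and one upstream of it (chr17:29213711-29216619); Trp53cor1, the gene of lincRNA-p21, is the next gene on that side in GRCm38.p6, but the upstream site could not be placed on it. The Trp53 window had 1 (chr11:69390052-69397906). Trp53 has its start beside that of Wrap53, which runs the other way, and peaks of the pair cannot be told apart.

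The starts themselves differ in CpG content. Any relation between it and the chromatin at the 3 Ink4-Arf starts, described below, was not tested. The sequences are RefSeq promoters of GRCm38.p6, from 250 bases before to 50 after the start, on the strand of the gene and 5′ to 3′. All 4 genes were matched, with 6 starts, and none of these sequences was placed on the mm9 peaks. CpG dinucleotides are in capitals in the first 3. Arf had 45 CpGs, and 1.93% of 32851 promoters had as many. Ink4a had 12 (39.6% of promoters had as many) and Cdkn2b 18 (29.7%), against a median of 7 over all promoters. In the last sequence, the upstream start of Cdkn1a, the capitals mark the only p53 response element found at any of the 6 starts, at position 200 of the 300 bases.
Cdkn2a Arf start: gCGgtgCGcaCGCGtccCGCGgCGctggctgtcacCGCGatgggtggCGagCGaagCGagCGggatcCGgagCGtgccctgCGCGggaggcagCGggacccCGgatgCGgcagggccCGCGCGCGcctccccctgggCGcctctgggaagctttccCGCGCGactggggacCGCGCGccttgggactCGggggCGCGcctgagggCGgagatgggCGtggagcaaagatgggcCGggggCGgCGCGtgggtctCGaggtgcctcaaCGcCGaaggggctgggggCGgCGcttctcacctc
Cdkn2a Ink4a start: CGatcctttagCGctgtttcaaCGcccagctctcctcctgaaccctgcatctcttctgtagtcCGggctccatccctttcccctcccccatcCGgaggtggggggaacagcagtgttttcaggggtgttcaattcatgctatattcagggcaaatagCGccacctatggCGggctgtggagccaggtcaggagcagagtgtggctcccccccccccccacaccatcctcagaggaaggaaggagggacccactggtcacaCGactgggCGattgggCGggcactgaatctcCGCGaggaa
Cdkn2b start: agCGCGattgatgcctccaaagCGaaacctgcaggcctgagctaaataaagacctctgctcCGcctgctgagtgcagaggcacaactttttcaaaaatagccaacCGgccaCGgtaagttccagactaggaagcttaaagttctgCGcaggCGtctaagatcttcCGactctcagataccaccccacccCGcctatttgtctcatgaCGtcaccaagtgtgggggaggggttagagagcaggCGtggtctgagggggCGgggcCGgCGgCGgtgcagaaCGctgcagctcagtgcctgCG
Cdkn1a upstream start: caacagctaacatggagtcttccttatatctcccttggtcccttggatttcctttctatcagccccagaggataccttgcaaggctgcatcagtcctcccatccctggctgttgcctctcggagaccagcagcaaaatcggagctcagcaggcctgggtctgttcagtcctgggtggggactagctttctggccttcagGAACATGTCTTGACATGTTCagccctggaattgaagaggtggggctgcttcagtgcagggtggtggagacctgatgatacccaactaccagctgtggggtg

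The element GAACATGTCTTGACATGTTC is 2 copies of the p53 half-site joined without a gap, with 1 mismatch to the consensus. An element with at most 1 mismatch, searched on both strands, was found in 0.0883% of the 32851 promoters. The downstream start of Cdkn1a had 23 CpGs and no such element, and the Trp53 start had 10 CpGs. The 8-letter octamer motif of Oct4 and its relatives was searched without mismatches on both strands and was in none of the 6 sequences. It was in 1.74% of all promoters, so its absence from 6 windows says little.

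At the Ink4a, Arf and Cdkn2b starts, acetylation of H3K27 (H3K27ac), which marks starts and enhancers in use, covered long stretches around the starts in fibroblasts and short ones in iPS cells, while H3K4me3 was present in every list. Both marks had a peak in the window in 9 of 9 lists, which 25.8% to 60.6% of 70 kb stretches had for H3K4me3 and 33.8% to 62.9% for H3K27ac in single lists. H3K27ac covered 18.55 kb of the 70 kb window in Mbd3+/+ MEF and 32.15 kb in Mbd3flox/- MEF. On day 4 it covered 18.69 and 19.02 kb. On day 8 it covered 19.59 kb in Mbd3+/+ cells and 4.03 kb in Mbd3flox/- cells. In iPS cells it covered 4.86 kb and 0.99 kb, and in Mbd3-/- ES cells 6.53 kb. The 2 genotypes were within 0.33 kb of each other on day 4 and stood apart at every other stage, in opposite directions before and after it. On day 8 the whole Mbd3+/+ list covered 97.1 Mb with 39463 peaks and the Mbd3flox/- list 91.0 Mb with 21237 peaks. Of the 9870 sites held by all H3K4me3 lists, 96.0% carried H3K27ac in the first and 76.2% in the second, the same direction as in the window. The whole lists covered 191.7 and 183.1 Mb in MEF, and 122.3 and 64.2 Mb in iPS cells. The part of these list-wide differences in the window values was not tested. Here and below, stretches are tiles of the genome as long as the window that held a peak of any list. Of the 70 kb stretches, the percentage with as much H3K27ac as this window was 2.76 in Mbd3+/+ day 8 and 20.1 in Mbd3flox/- day 8. It was 9.65 and 2.33 in Mbd3+/+ and Mbd3flox/- MEF, and 2.65 and 1.16 on day 4. In iPS cells it was 22.4 and 33.4, and in ES cells 18.4.

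**Figure D1:**
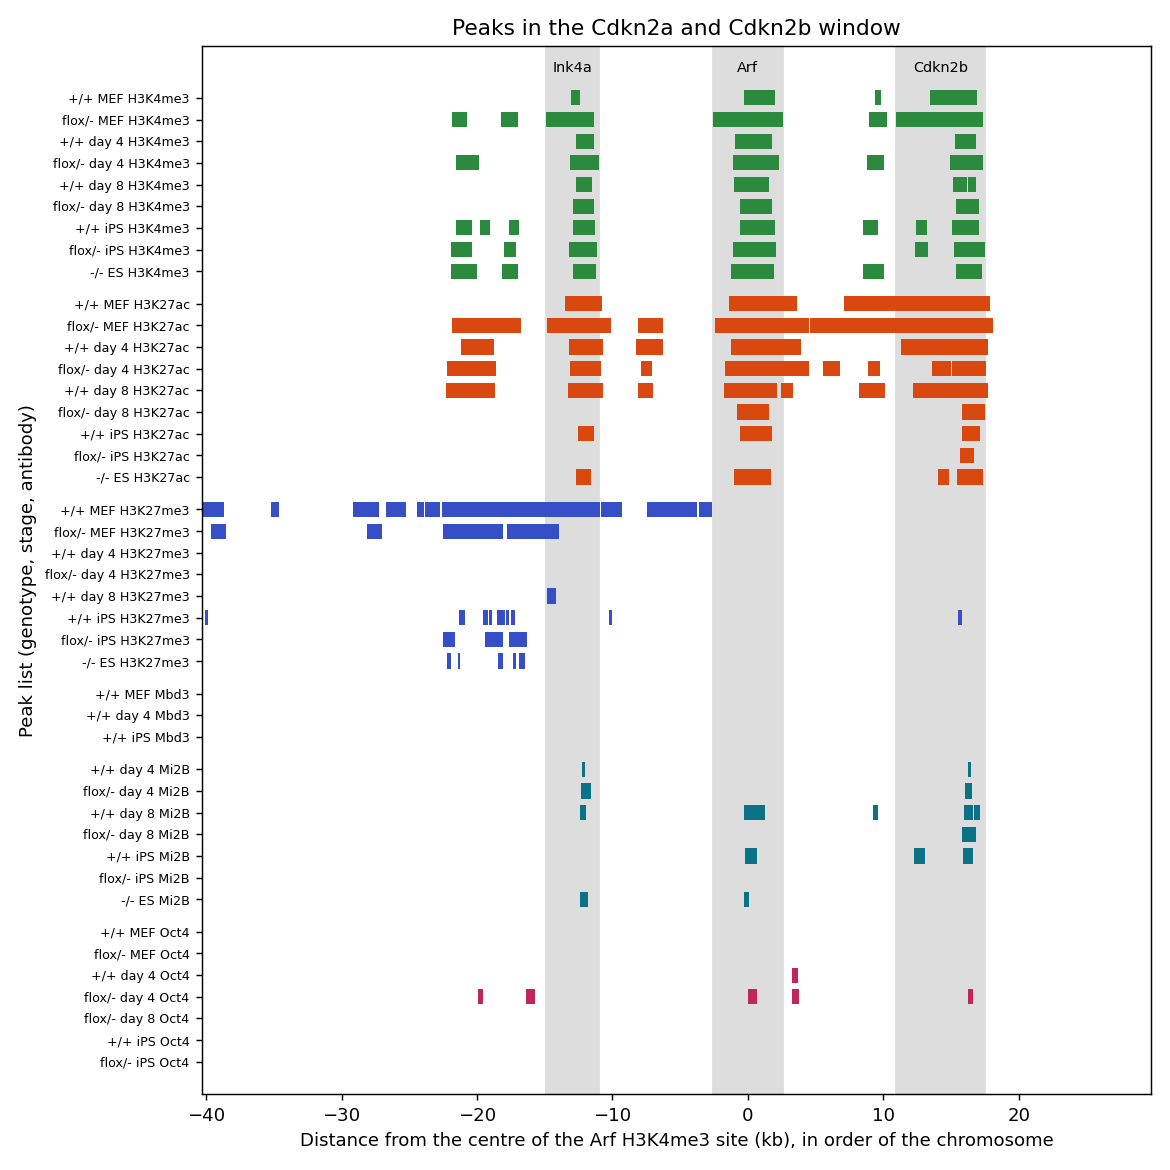
Peaks of the 43 lists in the Cdkn2a and Cdkn2b window, 1 row per list (genotype, stage, antibody), against distance in kb from the centre of the Arf H3K4me3 site; bars are peaks and grey bands the 3 sites held by all H3K4me3 lists. H3K27ac bars are wide from MEF to Mbd3+/+ day 8 and few in Mbd3flox/- day 8 and in iPS and ES cells, and H3K27me3 bars lie to the left of the Arf band in all but 1 case.

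The Arf site carried H3K27ac at the score plateau in both MEF lists. As many as 10.3% of the peaks of the Mbd3+/+ MEF list and 7.67% of the Mbd3flox/- MEF list were at or above that plateau. On day 4 the Arf peak scored 999.56 in Mbd3+/+ cells (8.78% of the list as high) and 2606.13 in Mbd3flox/- cells (2.24%). On day 8 it scored 1567.22 (8.82%) and 115.71 (61.9%). In iPS cells it scored 100.15 in the Mbd3+/+ list (69.7%) and was not detected in the Mbd3flox/- list, and in ES cells it scored 749.87 (21.6%). The Mbd3flox/- day 8 and Mbd3+/+ iPS lists thus placed Arf among their weaker peaks, the Mbd3flox/- iPS list held no Arf peak, and the other 6 lists placed it among their stronger peaks.

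Cdkn2b was also placed low in Mbd3flox/- day 8 and in both iPS lists. On day 4 it was placed higher in Mbd3+/+ than in Mbd3flox/- cells, the reverse of Arf. Its site lay under a single H3K27ac peak of 10814 bp in Mbd3+/+ MEF and of 13529 bp in Mbd3flox/- MEF, both at the plateau. The best peak was 6449 bp wide on day 4 in Mbd3+/+ cells (7.52% as high) and 2546 bp in Mbd3flox/- cells (14.8%). On day 8 the widths were 5547 bp (6.98%) and 1652 bp (80.7%). In iPS cells they were 1344 bp (56.2%) and 994 bp (96.1%), and in ES cells 1908 bp (39.6%). The remaining Mbd3flox/- iPS peak scored 53.01, close to the lowest score of any list.

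Ink4a was the weakest of the 3 starts for H3K27ac in 8 of the 9 lists, ES cells included, and absent alongside Arf in the Mbd3flox/- iPS list. It scored 769.28 in Mbd3+/+ MEF and 2358.37 in Mbd3flox/- MEF, which 31.6% and 11.6% of the lists matched or exceeded. The day 4 lists gave 212.55 and 362.28. On day 8 it scored 562.97 in Mbd3+/+ cells and was not detected in Mbd3flox/- cells. In Mbd3+/+ iPS cells it scored 52.11, with 97.8% of the list as high, and in ES cells 145.31.

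These values were read against comparable sites, with a threshold chosen after the values had been seen. Over the genome 9870 of 48250 merged H3K4me3 sites, or 20.5%, were held by all 9 H3K4me3 lists. Of these, 2452 carried H3K27ac at the plateau or above in both MEF lists, among them Arf, Cdkn2b, both Cdkn1a sites and Trp53. Arf and Cdkn2b were below the middle of the list, or absent, in Mbd3flox/- day 8, as were 28.3% of the 2452 sites. The same held in Mbd3+/+ iPS for 13.8% and in Mbd3flox/- iPS for 18.5%. Neither gene was that low in Mbd3+/+ day 8 (0.897% of sites were) or in ES cells (5.75%). The low places of Arf and Cdkn2b were therefore shared with 339 to 695 strong fibroblast sites per list, and the Cdkn1a and Trp53 sites were not among them in any list.

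**Figure D2:**
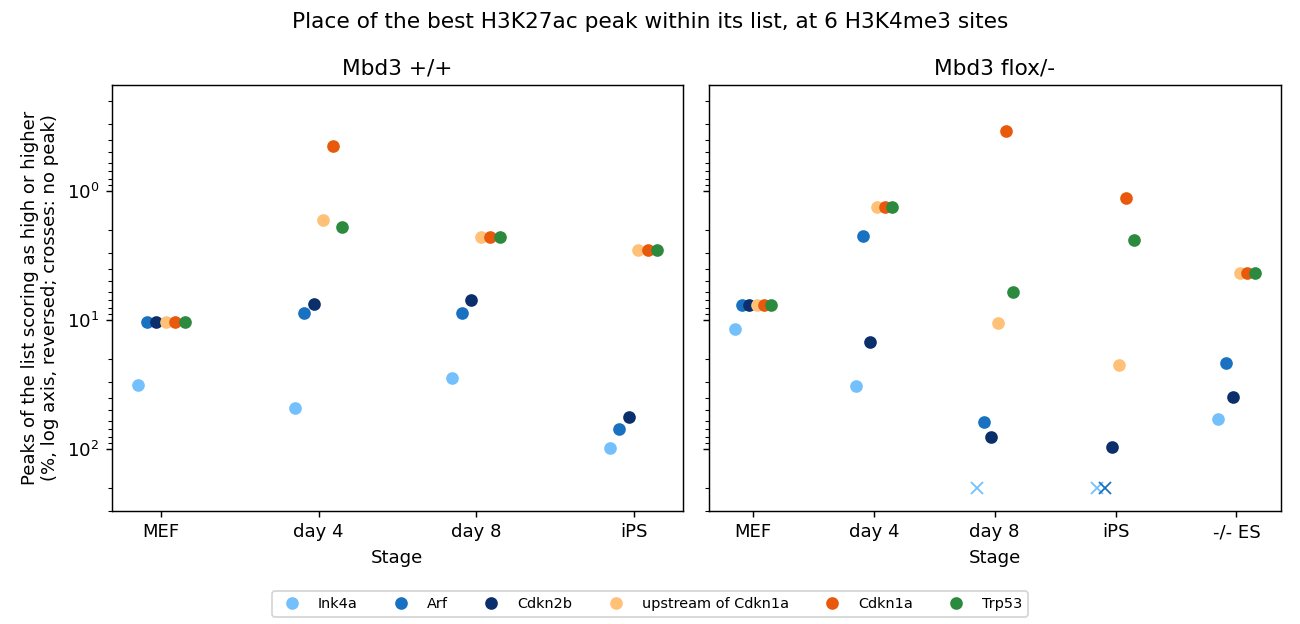
Place of the best H3K27ac peak at 6 H3K4me3 sites within its own list, as the percentage of the list's peaks that scored as high or higher (log axis, reversed, so stronger peaks are higher), by stage for Mbd3+/+ cells and for Mbd3flox/- cells with Mbd3-/- ES cells; crosses mark lists with no peak. Cdkn1a lies at 10.3% or less in all lists, and Arf, Ink4a and Cdkn2b lie at 56.2% or more, or have no peak, in Mbd3flox/- day 8 and both iPS lists.

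H3K4me3 remained detectable where H3K27ac was weak or missing. At Arf its peak was 2306 bp wide in Mbd3+/+ MEF and 5143 bp in Mbd3flox/- MEF, 2748 and 3421 bp on day 4, 2581 and 2392 bp on day 8, 2546 and 3203 bp in iPS cells and 3166 bp in ES cells. Mbd3flox/- iPS cells, with no H3K27ac peak at Arf, had an Arf H3K4me3 score of 2987.63, which 16.4% of that list matched or exceeded. A site held by all 9 H3K4me3 lists had no H3K27ac peak in Mbd3flox/- iPS in 15.9% of the 9589 cases with H3K27ac in both MEF lists. The Cdkn2b H3K4me3 peak was widest in MEF, at 3450 and 6369 bp, and 1066 to 2430 bp at all later stages. H3K4me3 over the whole window ranged from 5.41 kb in Mbd3+/+ day 8 to 18.74 kb in Mbd3flox/- MEF, whose list as a whole covered 49.0 Mb against 21.1 Mb in Mbd3+/+ MEF.

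H3K27me3, the Polycomb mark, lay over and below Ink4a in fibroblasts and was not detected on Arf in any of 8 lists. Of the sites held by all H3K4me3 lists, 81.7% had H3K27me3 in no list, so Arf was like most of them. The Mbd3+/+ MEF list had 11 peaks over 25.11 kb of the window, and 1.44% of 70 kb stretches had as much. The largest, chr4:88917709-88929345, was 11637 bp wide, covered the whole Ink4a site and scored 1006.24 (3.28% of the list as high). The Mbd3flox/- MEF list had 4 peaks over 10.54 kb, and 6.39% of stretches had as much. Its domain ended at 88926362, inside the Ink4a site, of which it covered 987 of 3910 bp. The 2 lists were of like extent over the genome, at 62.8 and 68.3 Mb. Among sites in all H3K4me3 lists, 7.48% carried H3K27me3 in Mbd3+/+ MEF and 6.28% in Mbd3flox/- MEF.

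At that same Ink4a site the active marks were placed lower in the Mbd3+/+ MEF lists than in the Mbd3flox/- MEF lists. The H3K4me3 peak was 699 bp wide and scored 53.48 in Mbd3+/+ MEF, where 97.1% of the list scored as high. In Mbd3flox/- MEF it was 3516 bp wide and scored 2407.48 (41.5%). The whole H3K4me3 lists differed the same way, with a median width of 1088 bp and 15 peaks at or above 3100 in Mbd3+/+ MEF against 1970 bp and 7924 peaks in Mbd3flox/- MEF. The part of that in the Ink4a values was not tested, and amounts cannot be compared between the libraries.

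After doxycycline and in ES cells H3K27me3 covered less of the window than in MEF, as it did over the whole genome. Neither day 4 list had a peak, and only 1.24% and 1.51% of the 70 kb stretches had one in those lists. Mbd3+/+ day 8 had 1 peak of 630 bp at the edge of the Ink4a site (score 67.04). In that list 2.58% of 70 kb stretches had a peak. Mbd3+/+ iPS had 10 peaks over 2.85 kb, Mbd3flox/- iPS 3 peaks over 3.47 kb and ES cells 6 peaks over 1.47 kb. As much was found in 2.20%, 2.73% and 5.14% of 70 kb stretches in these lists. The whole lists covered 8.3, 10.7 and 9.4 Mb, against 62.8 and 68.3 Mb in MEF. The part of that list-wide difference in the window values was not tested. Each of these 3 lists had peaks on the lower-coordinate side of Ink4a, between 88917785 and 88923940, within the stretch that carried the fibroblast domains. The strongest were chr4:88922634-88923940 in Mbd3flox/- iPS (168.79, 13.9% of the list as high), chr4:88921776-88922340 in Mbd3+/+ iPS (148.29, 7.45%) and chr4:88923402-88923786 in ES cells (129.92, 12.5%). None of the 3 lists had H3K27me3 on the Ink4a or Arf site, and only 12.6%, 7.50% and 8.96% of sites held by all H3K4me3 lists carried it in Mbd3+/+ iPS, Mbd3flox/- iPS and ES cells. Mbd3+/+ iPS had a peak of 236 bp just above the Ink4a site, chr4:88929996-88930231 (59.51, 61.1% as high), and one of 268 bp on the Cdkn2b site with a score of 55.50 (73.2%).

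**Figure D3:**
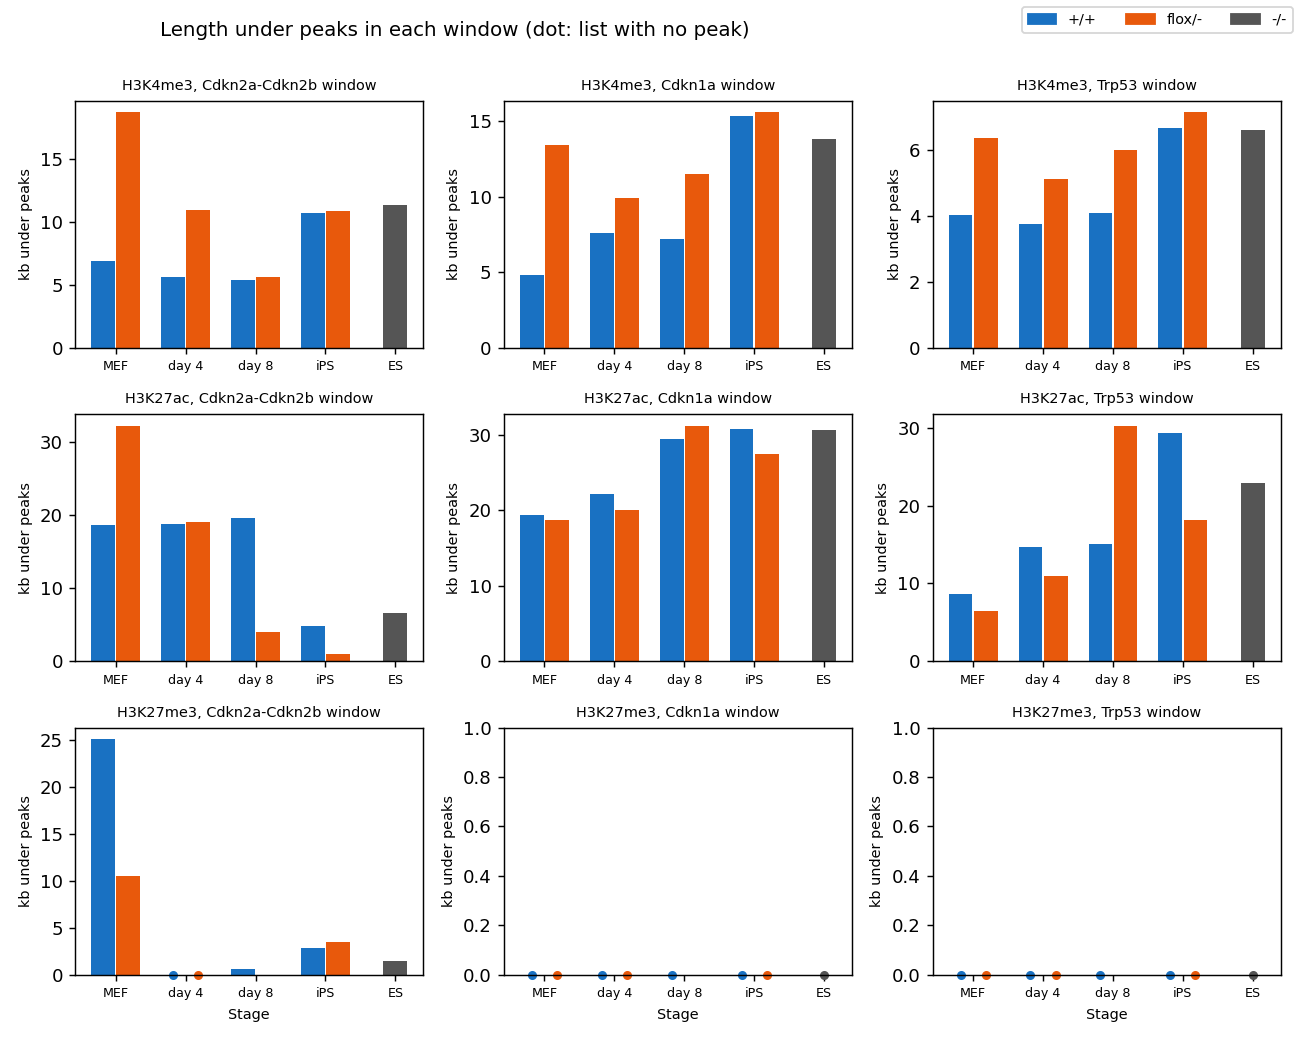
Length in kb under peaks of H3K4me3, H3K27ac and H3K27me3 (rows) in the 3 windows (columns) by stage; bars are single lists of Mbd3+/+ (blue), Mbd3flox/- (orange) and Mbd3-/- (grey) cells, and a dot marks a list with no peak. H3K27ac in the Cdkn2a and Cdkn2b window is 0.99 to 6.53 kb in iPS and ES cells, against 18.20 to 30.83 kb in the other 2 windows, which hold no H3K27me3 peak.

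Of the NuRD subunits, Mi2B was found at the Ink4-Arf starts, and Mbd3 was not detected in its lists of 1177, 1944 and 8657 peaks. None of the 3 Mbd3 lists had a peak in the window, and most 70 kb stretches had none either (3.59% to 18.1% had one in single lists). Mi2B had a peak there in 6 of 7 lists, against 8.66% to 41.1% of stretches in single lists, and all 16 Mi2B peaks lay on merged H3K4me3 sites. That held for 32 of 45 Mi2B peaks in the Cdkn1a window and 7 of 18 in the Trp53 window, and for 40.9% to 60.4% of all Mi2B peaks in single lists. The highest was on Arf in Mbd3+/+ day 8, 1175 bp wide with a score of 256.08, which 1.06% of that list matched or exceeded. At Arf the Mi2B scores were 92.30 in Mbd3+/+ iPS and 63.06 in ES cells, and no Arf peak was found in either day 4 list or in Mbd3flox/- day 8 or iPS. At Ink4a the scores were 51.63 and 97.00 on day 4, 96.87 in Mbd3+/+ day 8 and 114.48 in ES cells. Only 2 of the 6 lists kept a Mi2B peak in the window at a score of at least 100.

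Oct4, one of the 4 induced factors, had peaks in this window in both day 4 lists and in no other of 7 lists. In single lists after doxycycline 9.50% to 54.3% of 70 kb stretches had one. The Mbd3+/+ day 4 list had 1, chr4:88943543-88943990, with a score of 118.21 (38.1% as high). The Mbd3flox/- list had 5, the strongest of them at the same place, chr4:88943558-88944067, with a score of 409.80 (3.25%). Their shared position lay just beyond the upper edge of the Arf H3K4me3 site and under the Arf H3K27ac peak of both day 4 lists. No Oct4 peak was in the window in Mbd3flox/- day 8 or either iPS list. Of 8616 stretches of 70 kb with Oct4 in both day 4 lists, 28.9% had none in those 3 later lists, so this is a common course. The other 4 Mbd3flox/- peaks scored 57.64 to 78.21, and 1 of them was on Arf and 1 on Cdkn2b.

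Cdkn1a kept broad active marks at every stage and in every genotype. H3K27ac covered 19.43 and 18.70 kb of the 45 kb window in Mbd3+/+ and Mbd3flox/- MEF, 22.16 and 20.01 kb on day 4, 29.52 and 31.24 kb on day 8, 30.83 and 27.53 kb in iPS cells and 30.72 kb in ES cells. All 9 lists of H3K27ac and of H3K4me3 had a peak in the window, which 29.0% to 57.8% and 20.4% to 51.4% of 45 kb stretches had in single lists. The covered lengths were lowest in the MEF lists, and the genotypes differed by at most 3.31 kb at any stage. In both iPS lists and ES cells an H3K27ac peak of 25021 to 37088 bp lay upstream of the Cdkn1a site and began outside the window. Within the Cdkn1a site H3K27ac covered 7415 and 8920 bp in MEF and 8386 to 10933 bp in iPS and ES cells. The MEF lists as a whole were the longest of all, at 191.7 and 183.1 Mb. Of 45 kb stretches, 4.61% and 4.09% had as much H3K27ac in MEF, and 0.205% to 0.672% in the other 7 lists.

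At the Cdkn1a site itself H3K27ac was at the plateau in 8 of 9 lists and scored 1885.92 in Mbd3flox/- iPS, which 1.13% of that list matched or exceeded. H3K4me3 covered 3969 bp of the site in Mbd3+/+ MEF and 11006 bp in Mbd3flox/- MEF. It covered 6355 and 7173 bp on day 4, 5927 and 8382 bp on day 8, 10602 and 10589 bp in iPS cells and 10359 bp in ES cells. On day 8 it was among the top H3K4me3 peaks of the genome, with 10 of 13752 peaks as high in Mbd3+/+ cells and 12 of 15628 in Mbd3flox/- cells. No H3K27me3 list had a peak in the window, as was the case for 58.3% of 45 kb stretches.

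**Figure D4:**
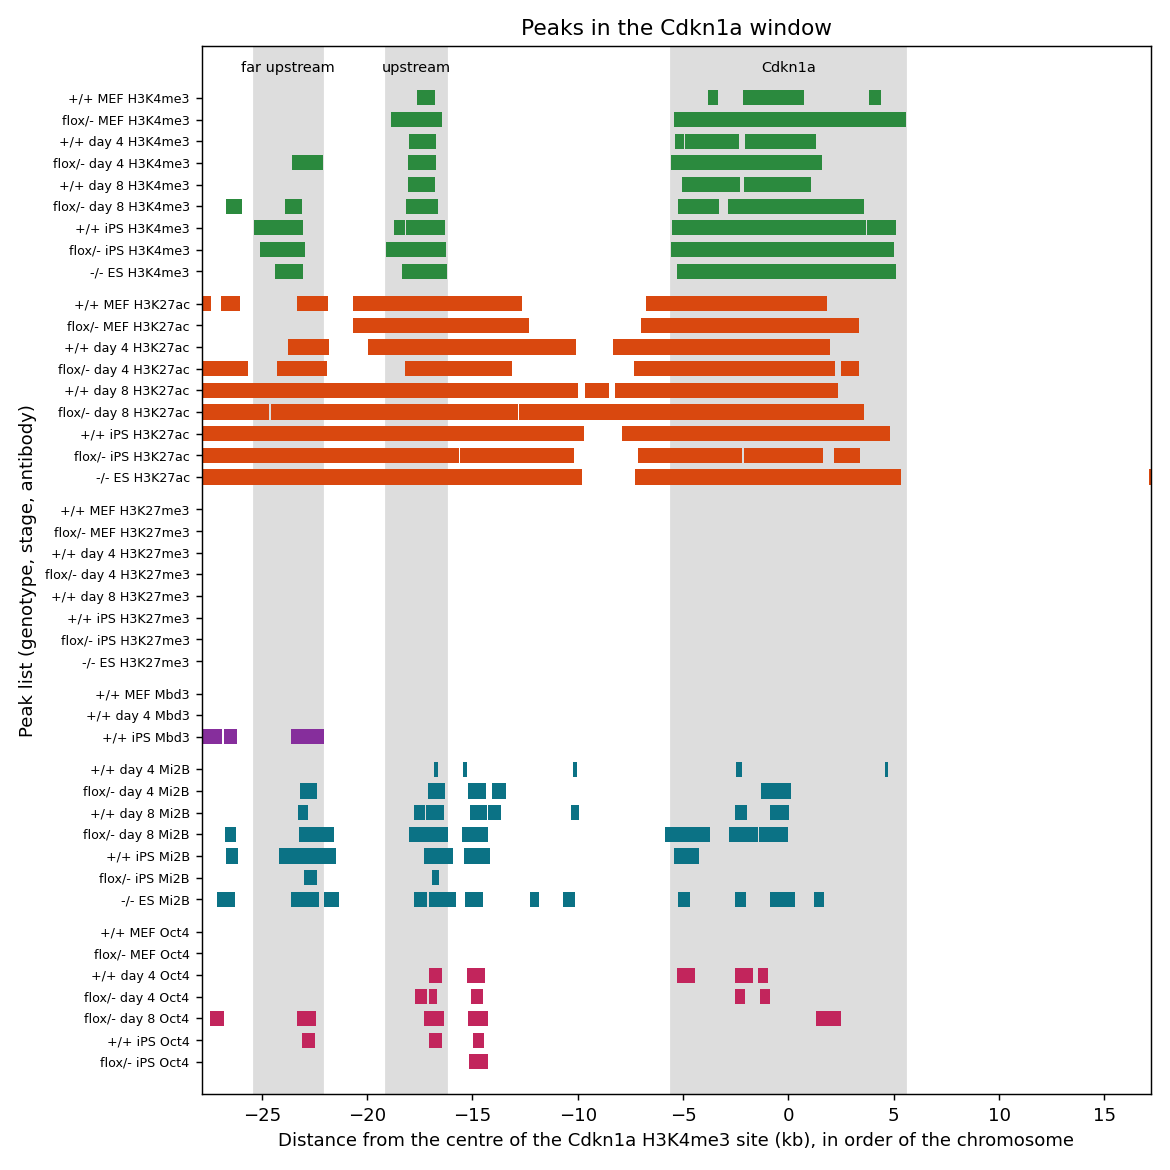
Peaks of the 43 lists in the Cdkn1a window, 1 row per list, against distance in kb from the centre of the Cdkn1a H3K4me3 site; grey bands are the Cdkn1a site, the upstream site held by all H3K4me3 lists and a far upstream site held by 5. H3K27ac fills most of the space left of the Cdkn1a band from day 8 on, and Oct4 and Mi2B peaks lie on and between all 3 bands, with Mbd3 on the far upstream side.

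Oct4 and Mi2B were found both upstream of Cdkn1a and on its site. Oct4 had a peak in the window in all 5 lists after doxycycline and in neither MEF list, and 2.74% of 45 kb stretches had one in all 5 (6.86% to 45.2% in single lists). A peak just beyond the upstream site, starting between 29217583 and 29217858, was shared by the 5. It scored 146.38 and 83.90 on day 4, 273.80 in Mbd3flox/- day 8, 128.95 in Mbd3+/+ iPS and 88.69 in Mbd3flox/- iPS. Between 15.7% and 57.1% of each list scored as high, so it was a middling Oct4 peak. All 19 Oct4 peaks in the window lay on H3K27ac of the same cells, which 51.3% to 69.0% of all Oct4 peaks did in the lists after doxycycline. On the Cdkn1a site Oct4 was found on day 4 and in Mbd3flox/- day 8, at scores of 51.59 to 120.05, and in neither iPS list. Among sites held by all H3K4me3 lists, 17.2% and 26.9% carried Oct4 on day 4 and 15.5% in Mbd3flox/- day 8. In Mbd3+/+ and Mbd3flox/- iPS 7.85% and 1.67% did, so absence there was the usual state.

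A far upstream site, singled out after its values were seen (chr17:29207433-29210709), carried H3K4me3 in 5 lists, none of them MEF. These were Mbd3flox/- day 4 and day 8, both iPS lists and ES cells, at scores from 59.77 to 326.31. Between 47.7% and 90.7% of each list scored as high, so these were middling to weak peaks. Over all merged H3K4me3 sites, 27.2% and 43.7% had a peak in the MEF lists and 49.8% to 74.5% in the iPS and ES lists. In Mbd3flox/- day 4 and day 8, 39.3% and 29.3% had one. The highest-placed Mbd3 peak of the 3 windows was there, and so was that of Mi2B in 4 lists. Mbd3 in Mbd3+/+ iPS scored 265.76 at chr17:29209223-29210781, with 0.439% of the list as high, while 5.19% of merged H3K4me3 sites had any Mbd3 peak in that list. Mi2B scored 488.87 in Mbd3+/+ iPS (0.241% as high), 357.29 in ES cells (0.514%), 201.59 in Mbd3flox/- day 8 (4.75%) and 110.26 in Mbd3flox/- iPS (6.61%). It scored 83.03 in Mbd3+/+ day 8 and 76.11 in Mbd3flox/- day 4, and no peak was found there in Mbd3+/+ day 4. Mi2B was therefore present in Mbd3-/- ES cells at the place where Mbd3 was found in Mbd3+/+ iPS cells. Oct4 shared the site in Mbd3flox/- day 8 (289.71) and Mbd3+/+ iPS (69.00).

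Over the whole Cdkn1a window, far upstream site included, Mi2B was found in all 7 lists, which 6.32% to 34.5% of 45 kb stretches had in single lists. It covered 1.04 and 4.58 kb on day 4, 5.19 and 10.18 kb on day 8, 7.13 and 0.88 kb in iPS cells and 9.46 kb in ES cells. The low Mbd3flox/- iPS value stood beside a list that covered 1.0 Mb in all against 25.4 Mb in Mbd3+/+ iPS, and the part of that in the difference was not tested. On the Cdkn1a site itself Mi2B was found in 6 of 7 lists, where 6.29% to 63.2% of sites held by all H3K4me3 lists had it in single lists. Its best score there was 51.37 and 114.06 on day 4, 189.57 in Mbd3+/+ day 8 (3.50% of the list as high, the highest-placed Mi2B peak of the window in that list), 143.24 in Mbd3flox/- day 8, 70.44 in Mbd3+/+ iPS and 136.59 in ES cells. On the upstream site it was found in all 7 lists, at best scores from 56.76 in Mbd3flox/- day 8 to 215.72 in ES cells. Mbd3 had peaks in the window only in the iPS list, 3 in number with the far upstream one, against 2.53% to 13.9% of stretches with Mbd3, and none on the Cdkn1a site.

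Trp53 carried H3K4me3 and H3K27ac in all 9 lists of each, which 17.8% to 46.5% and 26.7% to 54.8% of 35 kb stretches did in single lists, and held the highest-placed Oct4 peaks of the 3 windows. Its H3K4me3 site covered 4031 and 6384 bp in Mbd3+/+ and Mbd3flox/- MEF, 3765 and 5131 bp on day 4, 4088 and 6012 bp on day 8, 6671 and 7155 bp in iPS cells and 6623 bp in ES cells. The Mbd3flox/- value was the higher at each of the 4 stages, as was the length of the whole list (49.0 against 21.1 Mb in MEF, 52.3 against 46.3 Mb in iPS cells). H3K27ac covered 8.65 and 6.43 kb of the 35 kb window in MEF, 14.64 and 10.91 kb on day 4, 15.11 and 30.27 kb on day 8, 29.36 and 18.20 kb in iPS cells and 22.87 kb in ES cells. The Mbd3flox/- day 8 value came mainly from a single peak 34418 bp wide, which scored 1041.82 (6.08% as high). Of 35 kb stretches, 13.3% and 17.5% had as much H3K27ac in the MEF lists and 0.186% to 1.45% in the 7 others.

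**Figure D5:**
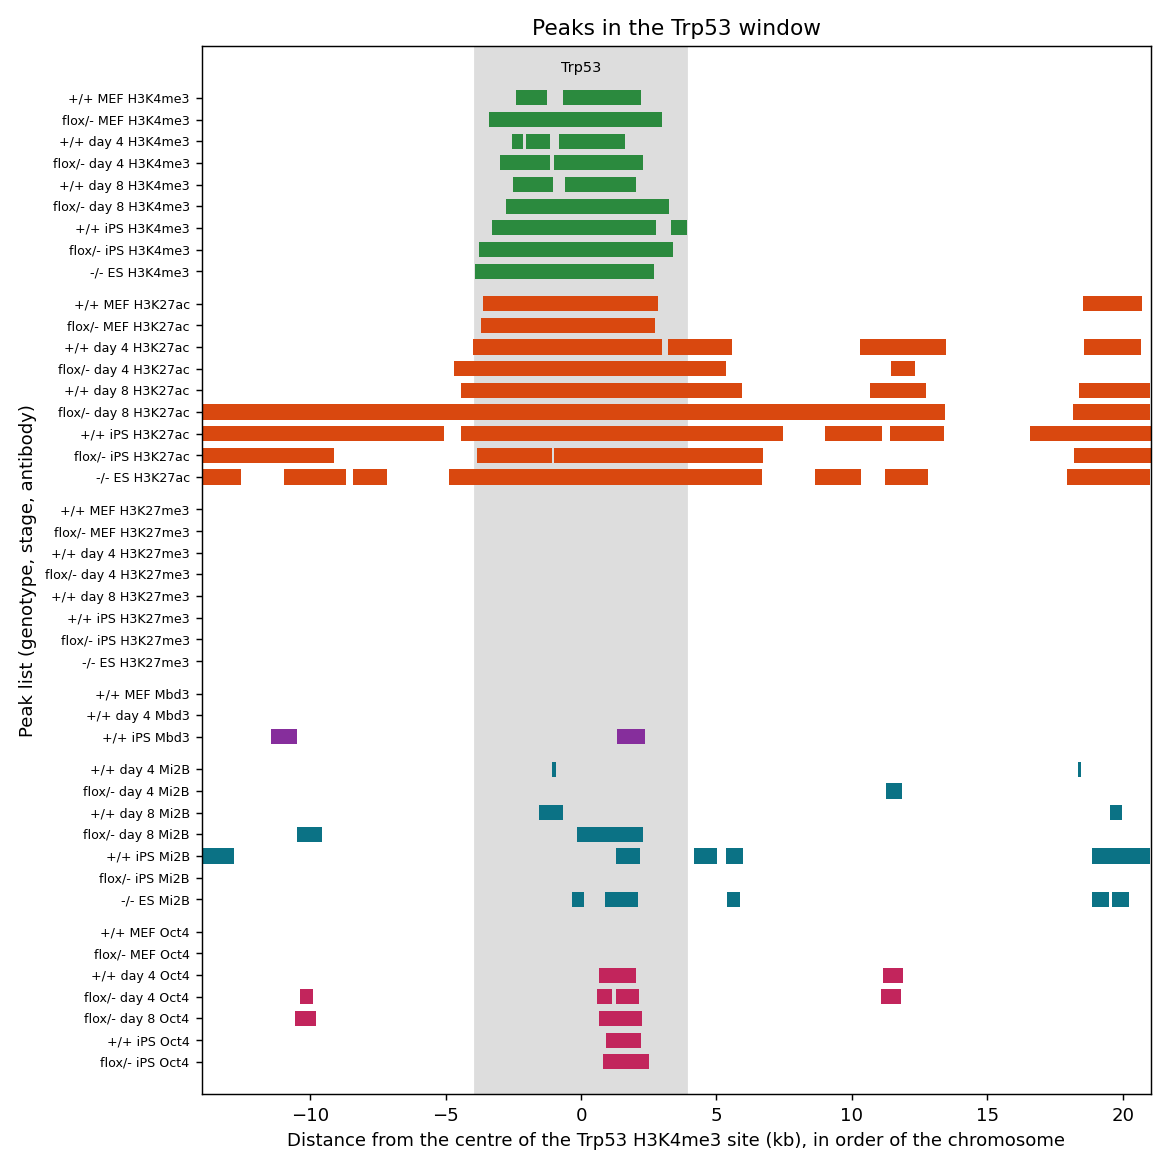
Peaks of the 43 lists in the Trp53 window, 1 row per list, against distance in kb from the centre of the Trp53 H3K4me3 site (grey band). An Oct4 peak lies at the same place right of the centre in the 5 lists after doxycycline and in neither MEF list, and H3K27ac is limited to the band and 1 distal peak in MEF and wider later.

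In single lists after doxycycline, 5.69% to 40.3% of 35 kb stretches had an Oct4 peak. Oct4 was found on the Trp53 site in all 5 lists after doxycycline and in no MEF list, which held for 94 of the 9870 sites in all H3K4me3 lists, or 0.952%. On day 4 the peak scored 401.83 in Mbd3+/+ cells (chr11:69394640-69396014, 7.25% of the list as high) and 410.34 in Mbd3flox/- cells (3.25%). In Mbd3flox/- day 8 it scored 1065.25 (1.15%). In iPS cells it scored 731.69 in Mbd3+/+ (0.463%, 55 of 11881 peaks as high) and 411.85 in Mbd3flox/- (0.901%, 30 of 3331). The 5 peaks overlapped one another and lay on the higher-coordinate side of the site, the side on which Trp53 runs away from Wrap53 in GRCm38.p6. In each list this peak ranked above every Oct4 peak of the Cdkn1a window and, on day 4, at or above those of the Cdkn2a and Cdkn2b window.

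A second Oct4 peak, near the upper part of the window at 69405062 to 69405869, was found on day 4 only, with scores of 106.60 and 110.44. Another, at 69383433 to 69384212, was found in Mbd3flox/- day 4 (81.86) and day 8 (179.24). Mbd3 was found at the Oct4 position in Mbd3+/+ iPS (83.09, 31.7% as high), but not at a score of at least 100. In single lists 2.08% to 12.0% of 35 kb stretches had Mbd3. Mi2B overlapped the Oct4 position in Mbd3flox/- day 8 (126.05), Mbd3+/+ iPS (147.79) and ES cells (211.43, 4.11% as high). In all, 6 of 7 Mi2B lists had a peak in the window, against 5.29% to 31.0% of stretches in single lists, and Mbd3flox/- iPS had none. No H3K27me3 peak lay in the window in any of the 8 lists, as in 60.9% of 35 kb stretches.

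Set side by side, the 4 genes differed in what was found at the iPS stage. Ink4a, Arf and Cdkn2b had H3K4me3 with H3K27ac peaks that were not detected or that 56.2% or more of the list matched or exceeded. They had no Oct4 peak, as was usual: 26.5% and 9.50% of 70 kb stretches had one in Mbd3+/+ and Mbd3flox/- iPS. Cdkn1a and Trp53 had H3K27ac peaks at their sites that 2.87% or less of the list matched or exceeded, and Oct4 nearby or on the site. Their H3K4me3 was at the plateau, with 7.73% of the list as high in Mbd3+/+ iPS and 15.5% in Mbd3flox/- iPS. Arf was close to this for H3K4me3, at 10.6% and 16.4%. Cdkn2b was at 29.9% and 32.8%, and Ink4a at 48.7% and 50.0%. The Cdkn1a window lost its Oct4 peak in Mbd3flox/- iPS at a score of at least 100. In Mbd3+/+ iPS it lost its Oct4 peaks with equal list lengths. In Mbd3-/- ES cells Cdkn1a and Trp53 were again above Ink4a, Arf and Cdkn2b for H3K27ac, at the plateau. Ink4a scored 145.31, Cdkn2b 303.05 and Arf 749.87. Arf was thus above Cdkn2b in ES cells, and Cdkn2b above Arf in both iPS lists. Unlike in iPS cells, Arf and Cdkn2b were above the middle of that list (21.6% and 39.6% as high). Oct4 could not be compared, as no Oct4 list of ES cells was analysed.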

How the data were processed

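ChIP-seq peak lists of 43 samples were used, of 52 in the series. The other 9 are input libraries. Per the submitters' processing notes, MACS 1.4.1, Bowtie 0.12.5 and CASAVA 1.8.2 were used with the mm9 build. The deposited files hold a chromosome, start, end, name and score per peak; the score is the authors' own, no source read here states its scale, and lists have 1 library each, so nothing was pooled or tested. The minimum overlap was 1 bp. Merging, overlaps and covered lengths were computed with Python 3.11.15, numpy 2.4.6 and pandas 2.3.3, and the overlap code was tested on simulated intervals. Backgrounds are all merged H3K4me3 sites, or stretches of the genome as long as a window that hold a peak of any list. Elements held by 3 or more lists were to be described one by one; because wide H3K27ac peaks joined most of 2 windows, merged H3K4me3 sites were used as well. Stage names follow the titles: the Mbd3+/+ day 4 lists of H3K27me3, Mbd3 and Mi2B carry stage labels of day 5, 6 and 7, and the Mbd3+/+ day 8 Mi2B list one of day 11. The members and lists were chosen with earlier results of these data known.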

Additional observations from a re-analysis of the deposited data

Results flagged for a closer look

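In 9 of 28 steps between stages, the length under peaks in a window changed in opposite directions in the 2 genotypes. Each value is the change in Mbd3flox/- minus the change in Mbd3+/+ cells, in kb, from 1 library at each point, and none of these differences was tested. For H3K27ac in the Cdkn2a and Cdkn2b window it was -13.27 from MEF to day 4 (18.55 to 18.69 kb in Mbd3+/+, 32.15 to 19.02 kb in Mbd3flox/-) and -15.90 from day 4 to day 8 (18.69 to 19.59 kb, and 19.02 to 4.03 kb). Mi2B there gave -3.28 from day 4 to day 8 (0.42 to 3.38 kb, and 1.31 to 1.00 kb). In the Cdkn1a window H3K4me3 gave -6.28 from MEF to day 4 (4.81 to 7.63 kb, and 13.41 to 9.95 kb) and 2.04 from day 4 to day 8 (7.63 to 7.19 kb, and 9.95 to 11.55 kb). From day 8 to iPS, H3K27ac in that window gave -5.03 (29.52 to 30.83 kb, and 31.24 to 27.53 kb) and Mi2B -11.24 (5.19 to 7.13 kb, and 10.18 to 0.88 kb). In the Trp53 window the same step gave -26.32 for H3K27ac (15.11 to 29.36 kb, and 30.27 to 18.20 kb) and -7.71 for Mi2B (1.29 to 5.65 kb, and 3.35 to 0.00 kb).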

How the results depend on the processing

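The 18 counts of lists with a peak, 1 for each antibody and window, were unchanged, or within 1.5 times, when a peak was placed by its midpoint, cut to 250 bp either side of it, or read in windows narrowed by 5 kb on each side. At a score of at least 100, Mi2B lists numbered 2 and not 6 in the Cdkn2a and Cdkn2b window and 3 and not 6 in the Trp53 window, Oct4 lists 3 and not 5 in the Cdkn1a window, and Mbd3 lists 0 and not 1 in the Trp53 window. With equal numbers of top peaks for the 2 genotypes, Oct4 lists in the Cdkn1a window numbered 3 and not 5. With windows widened by 5 kb, 4 H3K27me3 lists and not 0 had a peak in the Trp53 window, all beyond its upper end between 69417242 and 69419551. Of 97 counts of peaks per list, a score of at least 100 lowered 42 by more than 1.5 times, equal list lengths 10, narrower windows 12 and either change of the peak 2, and wider windows raised 14. No paired analysis was possible because each genotype, stage and antibody has 1 library. Depth is unknown, so lists cannot be scaled to each other.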

Other observations

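Sites with the same presence or absence as a named site in all 43 lists were few for Arf and Trp53. The Arf pattern was matched in full by 2 of the 48250 merged H3K4me3 sites, chr3:138150730-138153618 and chr4:58923074-58926505, against a median agreement of 25 lists. The Trp53 pattern was also matched by 2, chr10:67592003-67601173 and chr13:81795252-81798631 (median 18 lists). The Cdkn1a pattern was matched by 26 (median 20 lists). These sites were not assigned to genes.

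The factor peaks of the windows lay mostly under H3K27ac of the same cells. This held for 33 of 35 Oct4 peaks, 76 of 79 Mi2B peaks and 5 of 5 Mbd3 peaks. Over whole lists it held for 51.3% to 69.0% of Oct4 peaks after doxycycline, 72.2% to 81.5% of Mi2B peaks and 85.8% of the Mbd3 peaks of Mbd3+/+ iPS, the list that all 5 came from.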
